A study of Mus musculus with 2 samples.

Results

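The 10 genes described here, Actb, Gapdh, Hprt, Ppia, Tbp, Gusb, Rpl13a, B2m, Tfrc and Nono, are reference genes of the kind to which real time PCR data are normalized, and their mRNAs were measured in mouse liver with and without ischemia/reperfusion (I/R). They were chosen by the RefSeq accession printed with their array probe, and all 10 were found among the 59692 probes of the array that remained after filtering. Each was measured with a probe that was printed as 20 separate spots, whereas most probes were printed once. Whether the array holds further probes for these mRNAs is not known here, since only 116 probes could be given a symbol. The control and the I/R liver RNA, both labelled with Cy3, went onto 1 array each of the Arraystar Mouse LncRNA v2.0 design, which also carries mRNA probes. There were thus 2 arrays and no replicate of either condition.

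The labels give both samples as male liver, and the paper's methods name C57BL/6J mice of 10 to 12 weeks. In the I/R group the vessels to the left and median lobes were clamped under chloral hydrate anaesthesia, which made 70% of the liver ischemic for 60 minutes, and the livers were taken after 6 hours of reperfusion. The I/R RNA was a mixture of 3 livers, so no spread between mice can be read from it. The labels call the other sample a control and do not say whether it was a mixture, while the paper compares with sham-treated mice. The label of the tissue could not be checked against its markers, because none of the 10 hepatocyte marker genes looked for carries a named probe in the sources used here.

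A reference gene serves as a ruler. In the ΔΔCt method the amount of a target is divided by the amount of the reference in the same RNA, so any change in the reference between conditions is passed, inverted, to every target. The 10 genes belong to unrelated parts of the cell: the actin cytoskeleton (Actb), glycolysis (Gapdh), purine salvage (Hprt), protein folding (Ppia), general transcription (Tbp), nuclear RNA processing (Nono), the ribosome (Rpl13a), lysosomal breakdown of glycans (Gusb), antigen presentation (B2m) and iron uptake (Tfrc). Such genes are regulated too, Actb by serum response factor when cells are stimulated to move or divide, and B2m by interferon.

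The study's PCR assays used primers for 2 of the 10, shown here because their targets are the reference to which the LncRNAs were normalized (Actb) and the other housekeeping gene of its primer list (Gapdh). All bases are in lower case, 5′ to 3′, since no part of a primer is singled out.
Actb sense: agccatgtacgtagccatcc
Actb antisense: gctgtggtggtgaagctgta
Gapdh sense: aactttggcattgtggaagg
Gapdh antisense: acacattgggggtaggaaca
Each primer has 20 bases, of which 11 in both Actb primers, 9 in the Gapdh sense primer and 10 in the Gapdh antisense primer are G or C. The sequence of the array probes was not used here, so the part of each mRNA that a probe and a primer pair share is not given.

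The deposited signal of a spot is its brightness after background subtraction, called the processed signal below. No spot was saturated on either array. Apart from control spots, an array had 61194 spots with a median signal of 39.6 (control) or 39.3 (I/R), of which 42038 and 38819 were well above background. The reference gene probes lay far above this, from 1016 (Tbp) to 249719 (B2m) on the control array, and every usable spot of the 10 was well above background on both arrays. Signals of different probes are not levels of their mRNAs, because probes bind with different strength, so only the same probe is compared between the arrays. Of 200 spots of the 10 probes, 8 were marked as outliers by the scanner software and left out. Ranges of spots, their overlap and the numbers of spots higher on an array are those of processed signals before normalization. Folds below are I/R over control after quantile normalization. Their 95% spot interval is the normal interval from the standard error of the paired log2 differences of the spots before normalization. It is placed around the normalized fold, so whether it includes 1 depends on the normalization too. This interval covers the measurement of spots only, and with 1 array per condition no p-value can be given. The same folds were computed under 11 other settings (other normalizations, background corrections and choices of spots), which makes 12 settings in all. The series value table repeats the values without normalization, so 11 of the 12 give distinct folds.

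On this scale Actb was 2.06-fold higher on the I/R array, and the other 9 genes were between 0.843-fold (Tbp) and 1.17-fold (B2m). Past the study's thresholds of 1.5 and 0.7 lay 1 of the 10 genes, Actb, beside 30.5% of all 59692 probes (13.7% at or above 1.5 and 16.8% at or below 0.7). Among the 37211 probes well above background on both arrays the share was 23.8%, and among the 7606 probes at least as bright as Tbp, the dimmest of the 10, it was 16.1% (6.39% at or above 1.5 and 9.69% at or below 0.7). Within 0.8 to 1.25 lay 9 of the 10 genes, beside 51.7% of all probes, 54.2% of those well above background and 62.9% of the 7606 bright ones. The median fold of the 10 was 0.967, beside 0.995 for all probes and 0.965 for the bright ones. Their median absolute log2 fold was 0.15, beside 0.31 and 0.24. The fold of each of the 10 is a mean over 15 to 20 spots, whereas most probes were printed once. The 10 genes and the other probes were thus not measured with like precision, which limits these comparisons. In bulk tissue a change in the number of cells of a type and a change in the RNA per cell cannot be told apart, which holds for each gene below.

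**Figure D1:**
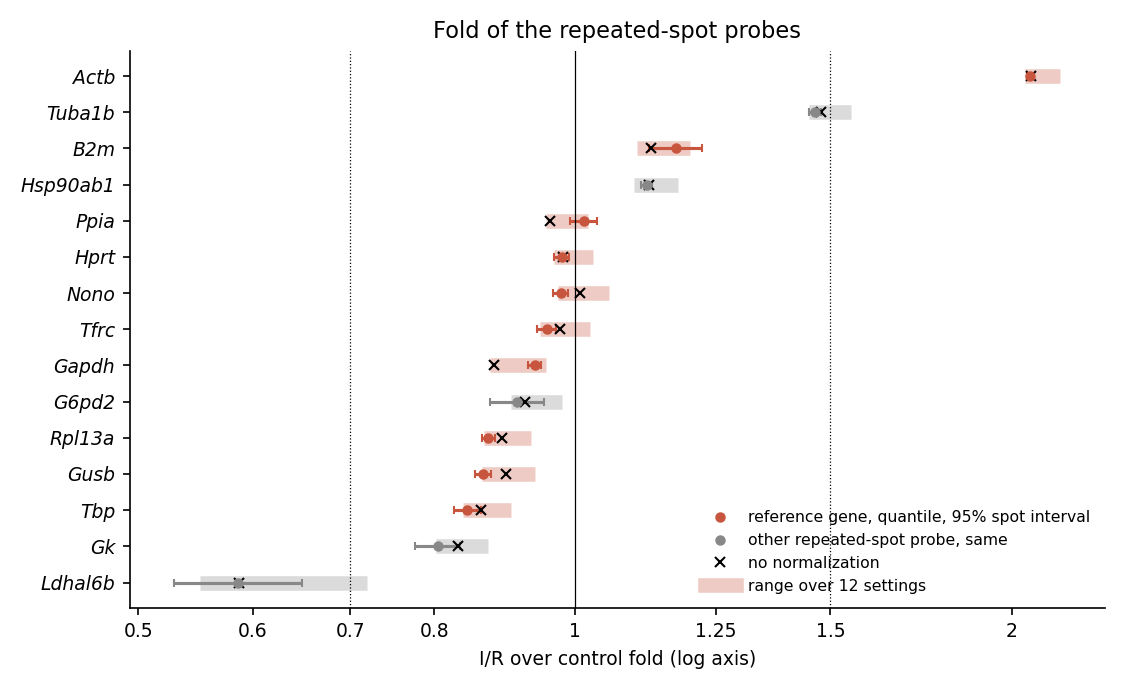
I/R over control fold (log axis) of the 10 reference genes (red) and of the other 5 probes printed as repeated spots (grey). Points are quantile-normalized folds with their 95% spot interval, crosses are folds without normalization, pale bands are the range over 12 settings, and dotted lines mark 0.7 and 1.5. Actb at 2.06 is the only reference gene beyond a dotted line, and Tbp at 0.843 is the lowest.

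Actb encodes β-actin, the non-muscle actin that forms the microfilaments of most cells. Its 20 spots had a processed signal of 15817 to 17765 on the control array (median 17075) and of 32434 to 36264 on the I/R array (median 35389). The ranges do not overlap, and the I/R signal was higher in 20 of 20 spots, by 2.03 to 2.11-fold. The quantile-normalized fold was 2.06 (95% spot interval 2.05 to 2.07). Without normalization it was also 2.06, and over the 12 settings it ranged from 2.04 to 2.16, the highest when the arrays were scaled by spike-in control probes. A fold at least as high was found for 6.73% of all probes, 4.39% of those well above background on both arrays and 2.24% of the bright ones. The only other cytoskeletal probe printed as repeated spots was that of Tuba1b, an α-tubulin of the microtubules and no member of the 10. Its signal was 8374 (control) and 12376 (I/R), and its fold was 1.46 (1.45 to 1.48), with 1.55 when scaled by spike-in probes.

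**Figure D2:**
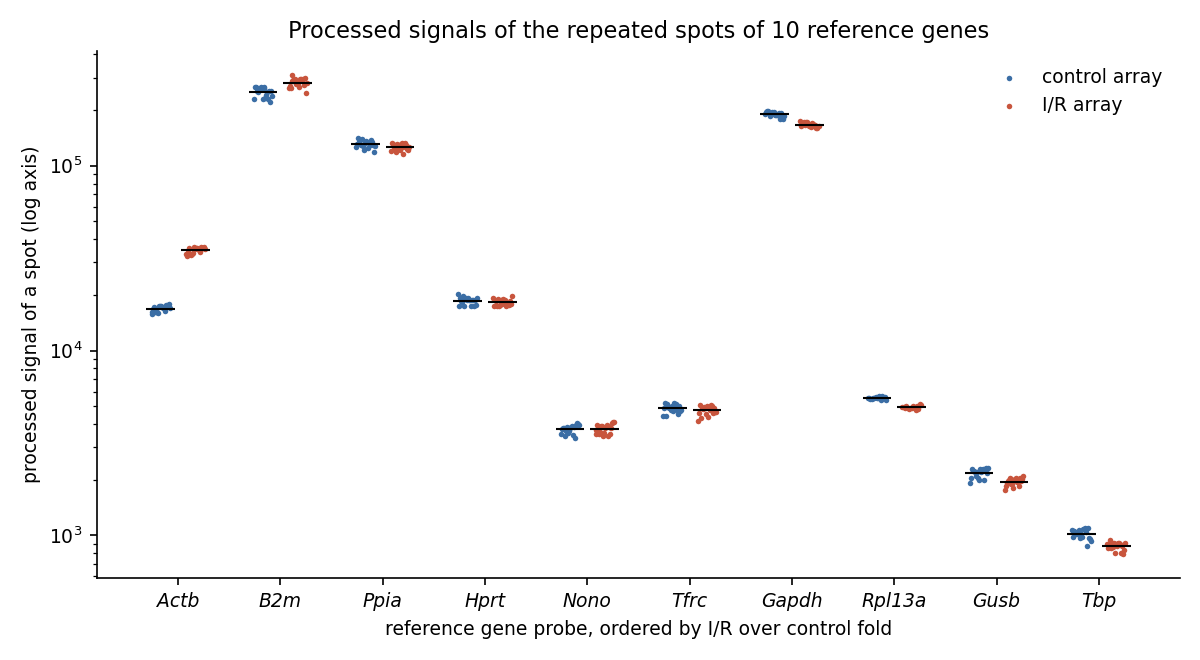
Processed signal (log axis) of each usable spot of the 10 reference genes on the control array (blue) and the I/R array (red), with the geometric mean as a line. The Actb spots form separate bands near 16877 and 34792, while those of Hprt, Nono and Tfrc lie at about the same height on both arrays.

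B2m encodes β2-microglobulin, the light chain of MHC class I molecules. It was the brightest of the 10 probes, with only 76 probes brighter on the control array and 50 on the I/R array. Its spots ran from 219929 to 268290 on the control array (median 253971) and from 247217 to 310744 on the I/R array (median 282883), so the ranges overlap, although 18 of 20 spots were higher on the I/R array. The fold was 1.17 (1.13 to 1.22), or 1.13 without normalization, and it was above 1 in all 12 settings. Ppia encodes cyclophilin A, a prolyl isomerase that helps proteins fold. Its spots covered 118746 to 141504 (median 131622) and 115150 to 132849 (median 126819). Its fold was 1.01 (0.993 to 1.04), an interval that includes 1. Without normalization it was 0.961 (0.941 to 0.981), an interval that does not include 1. The fold of Ppia lay above 1 in 8 of 12 settings and has no settled direction.

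The 3 enzymes of metabolism and breakdown were lower on the I/R array or close to the control. Gapdh, the glycolytic dehydrogenase, had spots of 178644 to 198675 on the control array (median 189501) and 159780 to 173598 on the I/R array (median 167043). Before normalization these ranges did not overlap, and 0 of 19 spots were higher on the I/R array. The quantile-normalized fold of Gapdh was 0.938 (0.929 to 0.948). Without normalization the same spots gave 0.880, outside that interval, and the fold stayed below 1 in all 12 settings. Hprt, which returns purine bases to nucleotides, had overlapping spots of 17326 to 20203 (median 18827) and 17343 to 19659 (median 18328). Its fold was 0.979 (0.968 to 0.991), and it was above 1 in 2 of the 12 settings. Gusb, the lysosomal β-glucuronidase, had spots of 1928 to 2318 (median 2219) and 1762 to 2093 (median 1982). These ranges overlap, yet 0 of 20 spots were higher on the I/R array than at the same place on the control array, and the fold was 0.864 (0.853 to 0.876).

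Among the genes of transcription, RNA and translation, Tbp and Rpl13a were lower on the I/R array and Nono was close to the control. Tbp encodes the TATA-binding protein, a subunit of TFIID. Its spots ran from 878 to 1099 on the control array (median 1024) and from 795 to 950 on the I/R array (median 885), with 0 of 19 higher on the I/R array. Its fold of 0.843 (0.826 to 0.861) was the lowest of the 10. Rpl13a encodes a protein of the large ribosomal subunit. Its 15 usable spots lay at 5396 to 5678 (median 5554) and 4774 to 5136 (median 4934), without overlap, and the fold was 0.871 (0.862 to 0.880). The remaining 5 of its 20 spots were marked as outliers, and with all such spots kept the fold was 0.881. Nono encodes an RNA-binding protein of the paraspeckles. Its spots covered 3361 to 4039 (median 3796) and 3457 to 4127 (median 3826), and 11 of 20 were higher on the I/R array. The fold of Nono was 0.977 (0.967 to 0.989), an interval below 1. Without normalization it was 1.01 (0.996 to 1.02), an interval that includes 1. It lay above 1 in 5 of 12 settings.

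Tfrc encodes the transferrin receptor, through which cells take up iron. Its spots lay at 4442 to 5222 on the control array (median 4885) and 4137 to 5102 on the I/R array (median 4828), with 3 of 19 higher on the I/R array. Its fold was 0.956 (0.942 to 0.970), but scaling by spike-in probes gave 1.02, the only one of 12 settings above 1. Before normalization, the usable spots of 3 of the 10 genes (Actb, Gapdh and Rpl13a) did not overlap between the arrays. For Rpl13a these were 15 of its 20 spots. Spots did not overlap for 26.7% of the 15 probes with repeated spots, but these 15 include the 10. Among the other 5 only the spots of Tuba1b did not overlap. By direction, 4 genes (Gapdh, Tbp, Gusb and Rpl13a) were below 1 and 2 (Actb and B2m) above 1 in all 12 settings, and the direction of Hprt, Ppia, Tfrc and Nono turned with the setting. Each of the other 5 probes with repeated spots also kept its direction in all 12 settings, which reuse the same arrays.

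The spread between spots was small and partly shared by the arrays. The coefficient of variation of the processed signal over the usable spots of a gene was between 1.45% (Rpl13a, control array) and 6.23% (B2m, control array). These values are below the error of about 10% that the scanner software assigns to each of these spots. The value of Rpl13a is over the 15 spots left after 5 outliers were removed. None of these 15 lay in the outermost columns described below. For 7 of the 10 genes the spots that were bright on the control array were also bright on the I/R array, with r above 0.5 across the log2 signals of spots, which share the probe and the place on the array. The other 5 probes with repeated spots, described below, all had r above 0.5 too, from 0.67 (Ldhal6b) to 0.94 (G6pd2). Among the 10 genes the highest r was 0.95 (Actb, 20 spots) and the lowest -0.30 (B2m, 20 spots). Between spots the log2 fold had an SD of 0.02 for Actb, less than the SD of its log2 signal on either array (0.05 and 0.05), and 0.14 for B2m, more than its SD on either array (0.09 and 0.08). Spots in the outermost 32 columns on each side of the grid of 164 columns were on average dimmer than the inner ones. This held on both arrays for all 9 genes that had usable spots there. For Actb the difference was -0.09 on each array (log2 scale). For B2m it was -0.04 on the control array and only -0.005 on the I/R array. The Actb fold without normalization was 2.06 at the edge (9 spots) and 2.06 inside (11 spots). This was the smallest difference among these 9 genes. The largest was that of Tfrc, with a fold of 0.960 at the edge (11 spots) and 0.9997 inside (8 spots). The fold was also lower at the edge for Gapdh, Hprt, Ppia, Tbp and Nono. It was higher at the edge for Gusb (0.915, and 0.888 inside) and B2m (1.15, and 1.12 inside). Place on the array thus touched the folds of some genes. Of the 8 spots left out for the 10 genes, 7 lay in these columns.

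**Figure D3:**
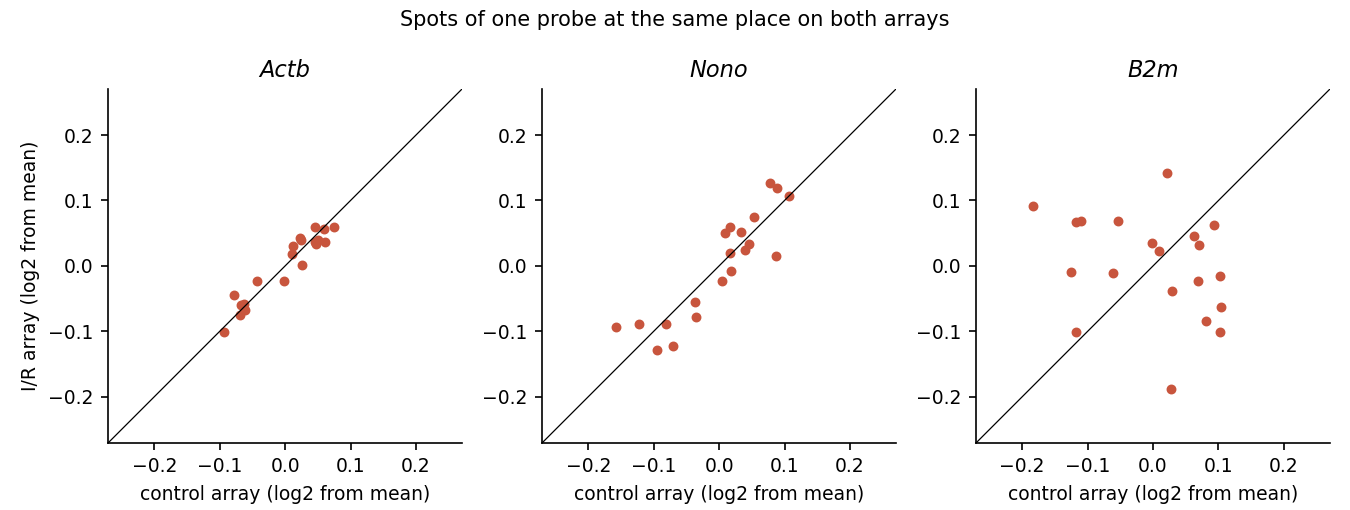
Log2 processed signal of each spot, as a difference from the mean of its gene, on the control array (horizontal) and at the same place on the I/R array (vertical), for Actb, Nono and B2m, with the line of equality. The Actb and Nono spots follow the line, with r of 0.95 and 0.89, and those of B2m do not, with r of -0.30.

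The change in the ratio of 2 reference genes does not depend on a scale factor common to an array, although quantile normalization, which works by rank, can move it. There are 45 pairs, 9 with Actb and 36 without. The ratio of Actb to each of the other 9 was higher on the I/R array in all 12 settings, of which 9 give distinct ratios, because 4 that differ by a scale factor at most share the same ones. Actb over Tbp was 2.44-fold higher (95% spot interval 2.39 to 2.49), and Actb over Gusb 2.38-fold (2.35 to 2.42). Actb over Gapdh, the 2 genes with primers, was 2.19-fold higher (2.17 to 2.22), and 2.34-fold without normalization. The smallest of the 9 was Actb over B2m, at 1.75-fold (1.68 to 1.83). Each change is the quotient of 2 of the folds given above, so the pairs are no further measurement. By those folds 9 of 9 pairs with Actb and 0 of 36 pairs without it changed by 1.5-fold or more.

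**Figure D4:**
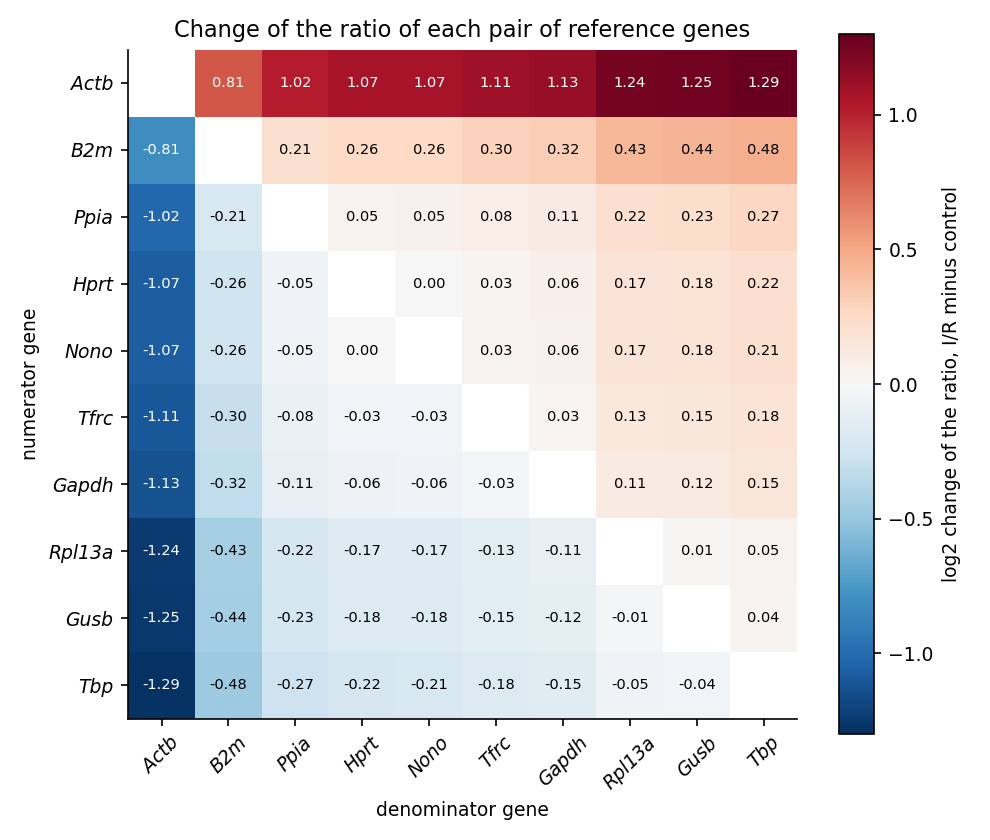
Change of the ratio of each pair of reference genes, as log2 of the ratio on the I/R array minus log2 of the ratio on the control array (colour and number), with the numerator in rows and the denominator in columns. The row of Actb runs from 0.81 over B2m to 1.29 over Tbp, and most cells that hold neither Actb nor B2m are pale.

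Among the 36 pairs without Actb the largest change was that of B2m over Tbp, 1.39-fold (1.33 to 1.46), and 1.31-fold without normalization. A change of at most 1.1-fold was found for 16 of the 36, and of at least 1.2-fold for 7. The ratio of Hprt to Nono was nearest to no change, at 1.002 (0.986 to 1.02). Gusb over Rpl13a, at 0.992 (0.976 to 1.01), was the only other pair whose spot interval included 1. The spot interval does not include the normalization, and 7 of the 36 pairs changed direction with the setting: Gapdh with Gusb and with Rpl13a, Hprt with Ppia and with Nono, Ppia with Tfrc and with Nono, and Gusb with Rpl13a. Of the 3 genes with the lowest folds, Tbp over Gusb was at 0.976 and Tbp over Rpl13a at 0.968 (0.946 to 0.991).

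As a summary of each gene's ratios, the absolute log2 change was averaged over its 9 partners. It was 1.11 for Actb, 0.39 for B2m, 0.32 for Tbp, 0.29 for Gusb, 0.28 for Rpl13a, 0.25 for Ppia and 0.23 each for Gapdh, Hprt, Tfrc and Nono. Actb was last, B2m ninth and Tbp eighth in all 9 settings that give distinct ratios. The order of the remaining 7 was not settled. Without normalization Gapdh had 0.25, above Gusb and Rpl13a with 0.24 each, and Ppia, Tfrc and Hprt had the lowest values, 0.22 each. With Actb left out, the mean over 8 partners was between 0.12 (Tfrc, Gapdh, Nono and Hprt) and 0.34 (B2m).

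The choice among these genes as the denominator sets how the whole array reads, which is arithmetic rather than a further measurement. Of the 37211 probes well above background on both arrays, 11.2% had a fold of at least 1.5 and 12.5% of at most 0.7. After each fold was divided by that of Actb the shares were 1.67% and 87.1%, and the median fold went from 0.962 to 0.467. Division by Gapdh gave 14.03% and 8.91%, by Hprt 12.03% and 11.1%, and by Nono 12.1% and 11.04%. Division by B2m gave 6.76% and 27.6%, and by Tbp 20.6% and 5.01%, so these 2 moved the balance in opposite directions. The geometric mean of all 10 genes had a fold of 1.03 and gave 10.3% and 14.6%. Without Actb the geometric mean of 9 had a fold of 0.953 and gave 13.3% and 9.66%. Actb and Gapdh together, the genes with primers, had a geometric mean fold of 1.39 and gave 4.27% and 51.5%, with a median fold of 0.692. Whether the livers on the arrays were among those of the PCR assays is not stated in the sources used here. The level of β-actin in the livers of the PCR assays is thus not known from these arrays.

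**Figure D5:**
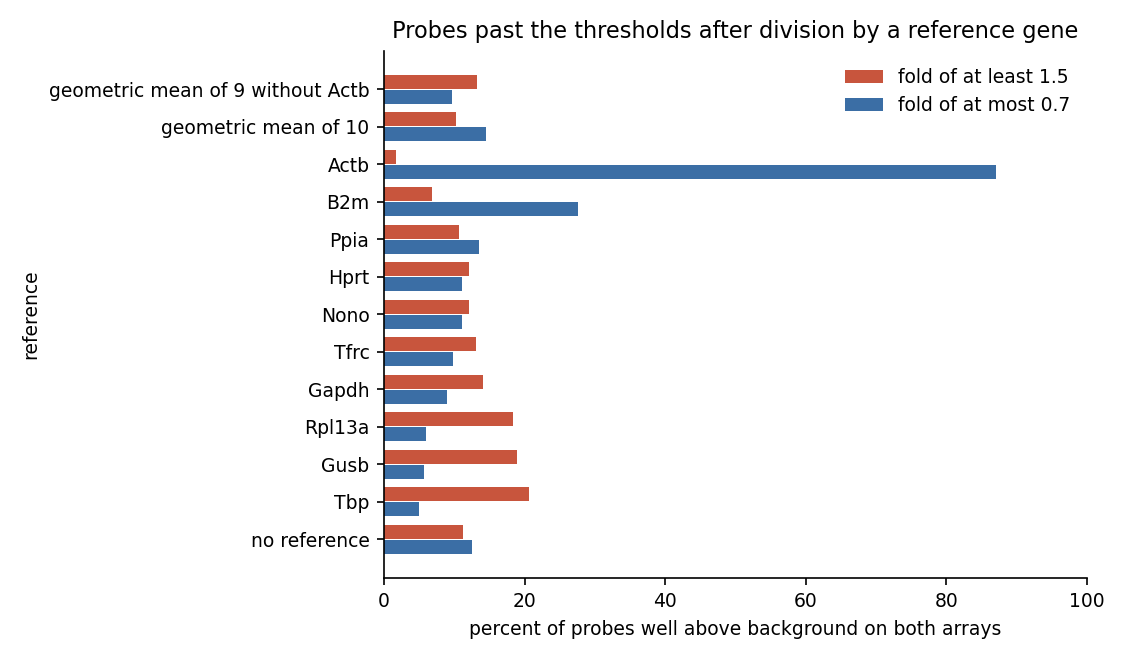
Percent of the 37211 probes well above background on both arrays with a fold of at least 1.5 (red) or at most 0.7 (blue), after all folds were divided by the fold of the reference named at the left. With Actb 87.1% of the probes fall at or below 0.7, and with no reference gene 12.5% do.

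The arrays carry 5 further mRNA probes printed as 20 spots each, which are not among the 10. Beside Tuba1b these were Hsp90ab1, a cytosolic chaperone also used as a reference gene, with a fold of 1.12 (1.11 to 1.13), and Gk, encoding glycerol kinase, with 0.804 (0.776 to 0.833). The last 2 were dim, with control signals of 160 for G6pd2 and 122 for Ldhal6b, both relatives of metabolic enzymes. G6pd2 had a fold of 0.912 (0.874 to 0.952). Ldhal6b had 0.586 (0.529 to 0.648), and the SD of its log2 fold was 0.31 over 17 spots. The median absolute log2 fold was 0.31 for these 5, of which 2 were dim, and 0.15 for all 10 reference genes. It was 0.09 for 9 of them when Actb, the gene furthest from a fold of 1, was left out. The lists of partner genes looked for around the 10 could not be described, since 17 of the 19 lists have no named probe here, and the others hold only Tuba1b and Hsp90ab1.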

How the data were processed

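Per the labels, mRNA was purified by removal of rRNA and copied into Cy3-labelled cRNA by random priming, with 1 array per condition. The authors scanned the arrays and extracted them with Agilent Feature Extraction 11.0.1.1 (submitters' processing notes). The intensity deposited for each spot is the background-subtracted processed signal. Its error, median signal, local background and quality marks are given with it. The value table of the series held the same intensities for all 62513 spots, without normalization.

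Omitted were control spots, negative-sequence probes and 31 spots marked as outliers on either array. Then log2 signals of repeated spots (at least 10) were averaged. Quantile normalization of the 59692 probes, the method the paper names, used limma 3.58.1 (R 4.3.3). The low precision of dim probes does not touch the 10 genes, but the number of arrays limits every difference. Python 3.11.15, numpy 2.4.6, pandas 2.3.3 and matplotlib 3.10.9 were used for the rest. Probes were named through a RefSeq table of GRCm38.p6, which gave a symbol to 116 probes. The pipeline was tested on simulated data. There the intervals of pairs were checked around folds without normalization, not around normalized folds as used here.

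The members and gene lists were chosen with earlier results of these data known. The named genes were all 10 reference genes, all other repeated-spot mRNA probes, and up to 4 named genes of each list. Of the 19 lists none had 80% of its genes named, so no list was summarized: MHC class I presentation, T and B cell, TFIID, actin cytoskeleton, cyclophilins, endothelial, erythrocyte, glycolysis, hepatocyte, inflammatory and stress response, iron handling, lysosomal hydrolases, macrophage, neutrophil, other reference genes, paraspeckle proteins, purine metabolism, ribosomal proteins and stellate. Alternatives were no normalization, the 75th percentile, cyclic loess, spike-in probes, normexp on the median signal (the mean signal is not among the columns used) with an offset of 50, the median of spots, outlier spots kept, spots in rows up to 192 or beyond only, the series table, other thresholds and filters, and, chosen after seeing the data, quantiles over single spots and division by reference genes.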

Additional observations from a re-analysis of the deposited data

How the results depend on the processing

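The number of reference genes past 1.5 or 0.7 was 1 (Actb) in the 12 settings, at thresholds of 2 and 0.5, and after division by each of the other 9 genes or by the geometric mean of 10 or of 9 without Actb. After division by Actb it was 9, all genes but Actb, and after division by Actb and Gapdh together it was 5 (Gapdh, Tbp, Gusb, Rpl13a and Tfrc). Of 110 values of the 10 log2 folds recomputed under 11 other settings, 85 moved by no more than the SD over spots and 25 by more. Actb moved from 1.04 to 1.08 under cyclic loess and to 1.11 when scaled by spike-in probes, and Gapdh from -0.09 to -0.18 without normalization. The share of all probes past the thresholds, 30.5%, was 7.73% with normexp, whose offset shrinks the folds of dim probes by construction, 16.1% among probes at least as bright as the dimmest reference gene, 87.9% after division by Actb, and 54.1% after division by Actb and Gapdh together. Under the other settings it lay between 23.8% and 38.4%. Spike-in scaling rests on 7 of 22 E1A and ERCC control probes, those well above background on most spots of both arrays, a limit set after seeing the data. Their log2 differences ran from -0.76 to 0.38 with a median of -0.07, and whether spike-in RNA was added is not stated in the sources used here. No paired analysis was possible because each condition has a single array, and for the same reason no array could be left out. Dim probes limit these arrays, with the lowest well-above-background signals at 12.7 (control) and 17.3 (I/R).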
